A study of Mus musculus with 10 samples.

Results

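Ahcy and 8 genes that stand beside it in the methionine-methylation cycle were followed through RNA-seq libraries of the mouse mandibular prominence (MNP), the part of the first arch from which the lower jaw develops. The 9 members were chosen by gene symbol out of 33641 symbols: Ahcy, its paralogs Ahcyl1 and Ahcyl2, the cycle enzymes Mat2a, Mat2b and Mtr, and the DNA methyltransferases Dnmt1, Dnmt3a and Dnmt3b. The choice was made because Ahcy is low in the library of the Gli2 and Gli3 mutant, so its level there is described without a test. All embryos were of the CD1 strain at embryonic day 10.5. The groups were wild-type (WT, 2 libraries analysed, numbered 3 and 4), Hand2 f/f; Wnt1-Cre+ (Hand2 cKO, 3 libraries, 1 to 3) and embryos with floxed Gli2 and Gli3 (both f/f) and Wnt1-Cre+ (Gli2/3 cKO, 1 library, number 3), and 4 further samples of the labels were not analysed here. Wnt1-Cre is active in neural crest, the source of most mesenchyme here, and not in epithelium, muscle core, vessels or blood, so transcripts of the targeted genes can remain from those cells. Which cells the remaining transcripts came from was not tested. The sources used here do not say how many embryos went into a library or whether WT embryos carried floxed alleles, and p-values measure the spread between these libraries only.

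The methionine cycle supplies the methyl groups that cells place on DNA, RNA, histones and other proteins. Methionine adenosyltransferase joins methionine to ATP and makes S-adenosylmethionine (SAM), the methyl donor. Each methyl transfer leaves S-adenosylhomocysteine, which blocks methyltransferases when it builds up, and adenosylhomocysteinase, the product of Ahcy, splits it into adenosine and homocysteine. Methionine synthase, encoded by Mtr, returns homocysteine to methionine with a methyl group from folate.

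Ahcy lies on chr2:155059310-155074497 (mm10, minus strand), and its main transcript has 2543 bases in 10 exons with the coding region at bases 106 to 1404. The mouse genome also carries intronless copies of it, so the sequences were compared first, because reads that 2 sequences share cannot be placed on 1 of them. By alignment with GENCODE M21 transcripts, 4 copies in the files reached 80% identity over 300 bases. Gm4737 (chr16:46152985-46155077, minus strand, annotated as protein coding) matched bases 42 to 2127 of Ahcy at 99.7% identity with 7 substitutions and no gap. Of these, 4 fell in the coding region (C564T, G579A, C1155T and C1173T, the base of Ahcy first, counted from the 5′ end of the Ahcy transcript), each on the last base of its codon, and 3 in the 3′ UTR (A1712T, G1716T and G2125A). The files list an earlier version of the Gm4737 transcript than GENCODE M21 does, and the sequence of that version was not compared. The 2 stretches that hold the coding differences are shown because they are the coding bases by which a read can be told apart, with capitals at each base where Ahcy and Gm4737 differ:
Ahcy, bases 535 to 594: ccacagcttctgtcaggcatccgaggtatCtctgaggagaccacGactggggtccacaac
Gm4737: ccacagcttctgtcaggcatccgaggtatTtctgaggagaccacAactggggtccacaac
Ahcy, bases 1126 to 1185: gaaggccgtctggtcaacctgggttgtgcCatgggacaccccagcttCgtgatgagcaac
Gm4737: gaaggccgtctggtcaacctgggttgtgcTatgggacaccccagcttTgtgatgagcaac
Gm9826: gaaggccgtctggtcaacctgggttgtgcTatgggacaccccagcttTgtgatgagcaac
Gm9826, a processed pseudogene on chromosome 1, matched only the coding region, at 99.2% identity with 11 substitutions, and carried the same bases as Gm4737 at positions 1155 and 1173. The processed pseudogenes Gm5638 and Gm4913, both on the X chromosome, matched at 92.1% and 88.5%. Of the 2394 windows of 150 bases (the read length of the study) in the Ahcy transcript, 1447 (60.4%) were identical in Gm4737, and the last 416 bases of Ahcy lie beyond the end of the copy. A window stands for 1 read, and the reads were paired, so fewer pairs than windows may be ambiguous. The bases are those of the reference, and whether CD1 embryos carry them was not tested.

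**Figure D1:**
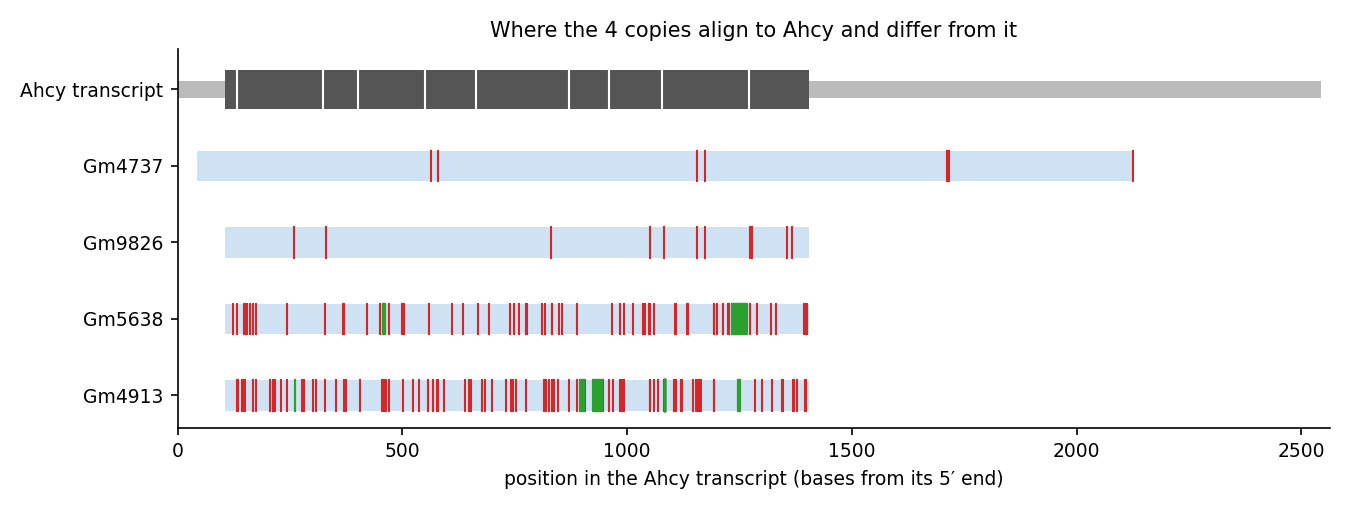
Map of the Ahcy transcript (top, coding region thick, white lines at exon junctions) and of the parts that each copy matches (pale bars), with substitutions in red and gaps in green, along the position in the transcript in bases. Gm4737 differs at 7 positions and spans most of the transcript, while the other 3 copies cover the coding region.

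The libraries held 21420197 to 53326697 estimated counts (WT 4 the fewest, then Gli2/3 cKO 3). Levels are given as CPM (counts scaled to a common library total, adjusted by the trimmed mean of M values). Hand2 was at 192 ± 24.5 CPM (SD, n = 2) in WT and at 13.4, 25.4 and 15.6 CPM in Hand2 cKO, while Gli2 (114 ± 11.7 in WT) was at 58.3 and Gli3 (160.3 ± 21.7 in WT) at 80.1 CPM in Gli2/3 cKO. Hand2 cKO 2 stood apart, with log2 levels lower by 0.23 per doubling of transcript length (slopes from -0.06 to 0.11 in the other libraries). All 6 neural crest mesenchyme markers were present, summing to 1344 to 1660 CPM. The 6 erythroid markers summed to 6974 CPM (WT 4), 7481 CPM (Hand2 cKO 2) and 2407 to 3541 CPM elsewhere. In whole tissue, fewer cells of a type and less RNA per cell cannot be told apart.

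Ahcy was at 121 CPM in WT 3 and 109.7 CPM in WT 4, at 142, 186 and 138 CPM in Hand2 cKO 1, 2 and 3, and at 18.2 CPM in the Gli2/3 cKO library. The last was 15.8% of the WT mean (115 ± 7.94 CPM, SD, n = 2), a fold of 6.33, and every other library was at 109.7 CPM or more. The log2 fold change of Gli2/3 cKO against WT was -2.66 ± 0.29 (SE, with a spread borrowed from the other groups), a value that chose the members and has no replicate. Of the 17477 genes tested, 16.8% were lowest in this library and 12.6% were over 1.5-fold below WT, and 384 genes, Ahcy included, had a fold change at or under that of Ahcy.

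Gm4737 had the opposite pattern. It was at 229.6 and 255 CPM in WT, at 231, 317 and 248 in Hand2 cKO and 409 in the Gli2/3 cKO library, above all 5 other libraries (18.7% of genes were highest in this library). Ahcy was 97.1 CPM lower and Gm4737 166 CPM higher in Gli2/3 cKO than in WT on average. The other copies had few counts: Gm9826 had 1.80 to 3.73 estimated counts in each library, Gm5638 had 1 count in Hand2 cKO 2 and 0 in the rest, and Gm4913 had 0 in all 6.

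Summed over Ahcy and the 4 copies, the level in Gli2/3 cKO was not low. It was 351 and 365 CPM in WT, 374, 503 and 386 in Hand2 cKO and 427 in the Gli2/3 cKO library. The last was 119% of the WT mean (358 ± 10.1 CPM, SD, n = 2). It lay inside the range of Hand2 cKO (421 ± 71.5, n = 3) through Hand2 cKO 2 alone, and above every other library. The log2 fold change of the sum against WT was 0.26 ± 0.25 (SE). Of this sum, Ahcy was 34.5% and 30.1% in WT, 38.1%, 36.9% and 35.7% in Hand2 cKO, but 4.26% in the Gli2/3 cKO library. The Gli2/3 cKO library thus stood apart in how counts divided between Ahcy and Gm4737, while the sum was exceeded only in Hand2 cKO 2. Whether the reads came from the one gene or the other was not tested, since estimated counts do not show at which bases reads were assigned.

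**Figure D2:**
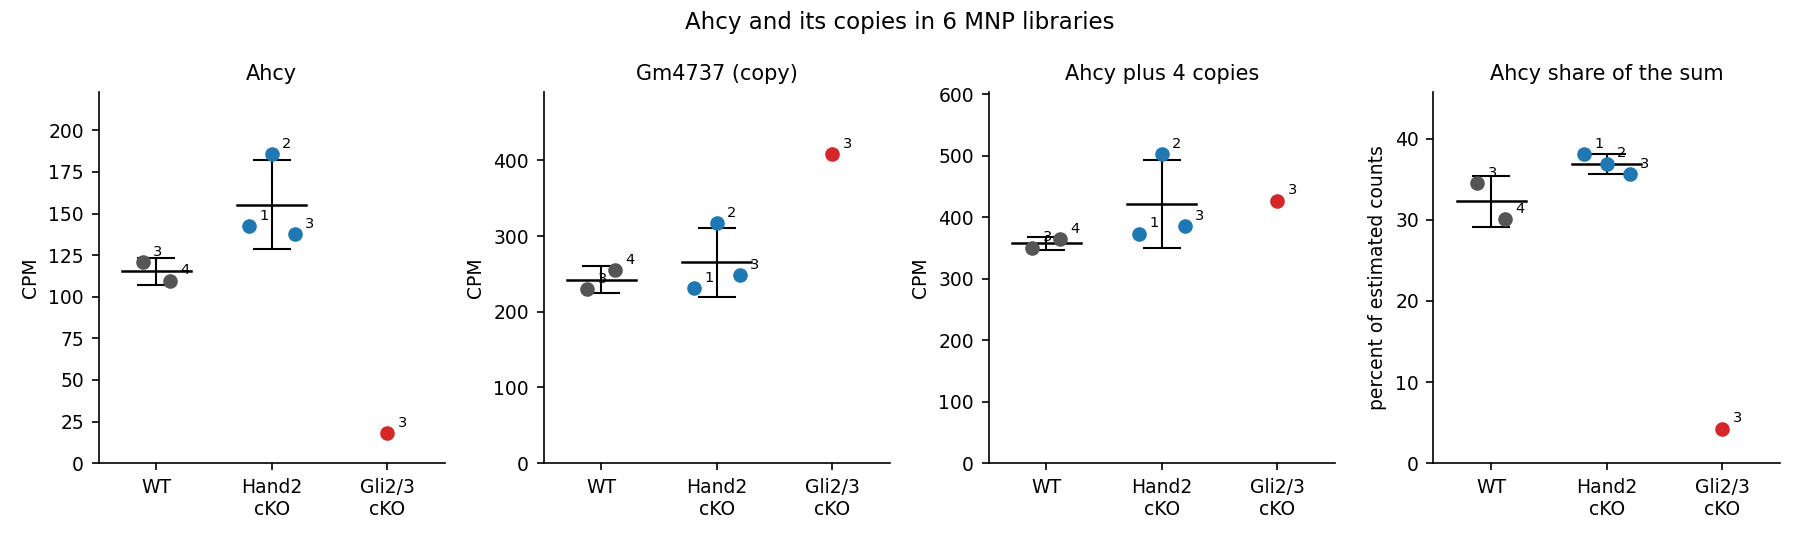
CPM of Ahcy, of Gm4737 and of Ahcy plus 4 copies, and the share of Ahcy in that sum in percent (linear axes from 0), with 1 point per library, numbered by replicate, and bars that show mean ± SD (n = 2 for WT, n = 3 for Hand2 cKO). The Gli2/3 cKO point is lowest for Ahcy (18.2 CPM) and highest for Gm4737 (409 CPM). For the sum (427 CPM) only Hand2 cKO 2 is higher.

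The files list 3 transcripts of Ahcy, and they differed in pattern. The 2543-base coding transcript carried 90.5% to 99.8% of the counts of the gene. It was at 120.3 and 109 CPM in WT, 141, 186 and 136 in Hand2 cKO and 16.5 in the Gli2/3 cKO library, 6.95-fold below the WT mean. A 536-base transcript that ends in 262 bases of the second intron (chr2:155068566-155068827) has sequence that a spliced copy lacks: none of its 232 intron words of 31 bases occurred in a GENCODE transcript of any other gene. It had 32.8 and 24.5 estimated counts in WT, 53.0, 13.4 and 48.1 in Hand2 cKO and 45.1 in Gli2/3 cKO. In CPM these were 0.638 and 1.08 in WT, 1.00, 0.354 and 1.16 in Hand2 cKO and 1.72 in Gli2/3 cKO, so that the intron-holding transcript was highest in the library in which the coding transcript was lowest. With counts this low the order of the libraries is uncertain. The estimates are for the whole transcript, whose other bases lie in exons of the coding transcript. They therefore cannot be credited to the intron bases alone. The third transcript, of 341 bases, had 12.4 and 14.1 counts in Hand2 cKO 1 and 3 and 0 in the other 4 libraries.

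The other 8 members stayed near WT in Gli2/3 cKO, at 82.8% to 130.4% of the WT mean, with log2 fold changes from -0.27 to 0.38 (median 0.12, against 0.00 over all genes tested) and none over 1.5-fold (22.5% of all genes were). In 7 of them the Gli2/3 cKO library lay within the range of the other 5 libraries, and in 1, Mat2a, above it (35.5% of all genes lay outside on 1 side or the other). This contrast was used to choose the members, and nothing is read from these counts.

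The paralogs Ahcyl1 and Ahcyl2 encode AHCY-like proteins that bind the inositol trisphosphate receptor and ion transporters and do not replace adenosylhomocysteinase in the cycle. Ahcyl1 (chr3:107663118-107696560) was at 189.7 and 182 CPM in WT, 200.5, 169 and 202 in Hand2 cKO and 195 in the Gli2/3 cKO library, and the groups overlapped. Ahcyl2 (chr6:29768011-29912310) was at 37.2 and 36.1 CPM in WT, 33.1, 26.1 and 35.7 in Hand2 cKO and 34.8 in the Gli2/3 cKO library. The main transcripts of the 2 paralogs were 80.1% identical over 1504 bases, against 71.95% over 246 bases between Ahcy and Ahcyl1, far from the 99.7% of Ahcy and Gm4737.

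Mat2a, the catalytic subunit of the methionine adenosyltransferase of most tissues, was at 388 and 358 CPM in WT, 442, 421 and 452 in Hand2 cKO and 487 in the Gli2/3 cKO library. All 3 Hand2 cKO libraries lay above both WT libraries, and Gli2/3 cKO above all. Each of the 20 Mat2a transcripts in the files has a twin with the same estimate in every library, so its level against other genes may be off by the same factor throughout, while its ratios between libraries are not touched. Mat2b, its regulatory subunit, was at 73.7 and 65.8 CPM in WT, 75.9, 89.9 and 76.8 in Hand2 cKO and 84.3 in the Gli2/3 cKO library. Mtr was at 50.9 and 38.6 CPM in WT, 46.4, 29.4 and 50.5 in Hand2 cKO and 50.8 in the Gli2/3 cKO library, and its groups overlapped.

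Dnmt1, which copies methylation onto the new DNA strand at replication, was at 499 and 479 CPM in WT, 497, 369 and 508 in Hand2 cKO and 479.5 in the Gli2/3 cKO library. Dnmt3a and Dnmt3b place methylation on unmethylated DNA. Dnmt3a was at 352 and 299 CPM in WT, 297, 247 and 314 in Hand2 cKO and 269.6 in the Gli2/3 cKO library. Dnmt3b was at 43.1 and 50.5 CPM in WT, 48.1, 45.3 and 55.7 in Hand2 cKO and 54.2 in the Gli2/3 cKO library. For all 3 methyltransferases the WT and Hand2 cKO ranges overlapped. Copies of the other members held almost no counts: the pseudogene Gm9523 took at most 0.0128% of Mat2a plus copy and Dnmt3c at most 0.0981% of Dnmt3b plus copy, and Dnmt3a-ps1 and the Mtr pseudogene Gm48675 were at 0.

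**Figure D3:**
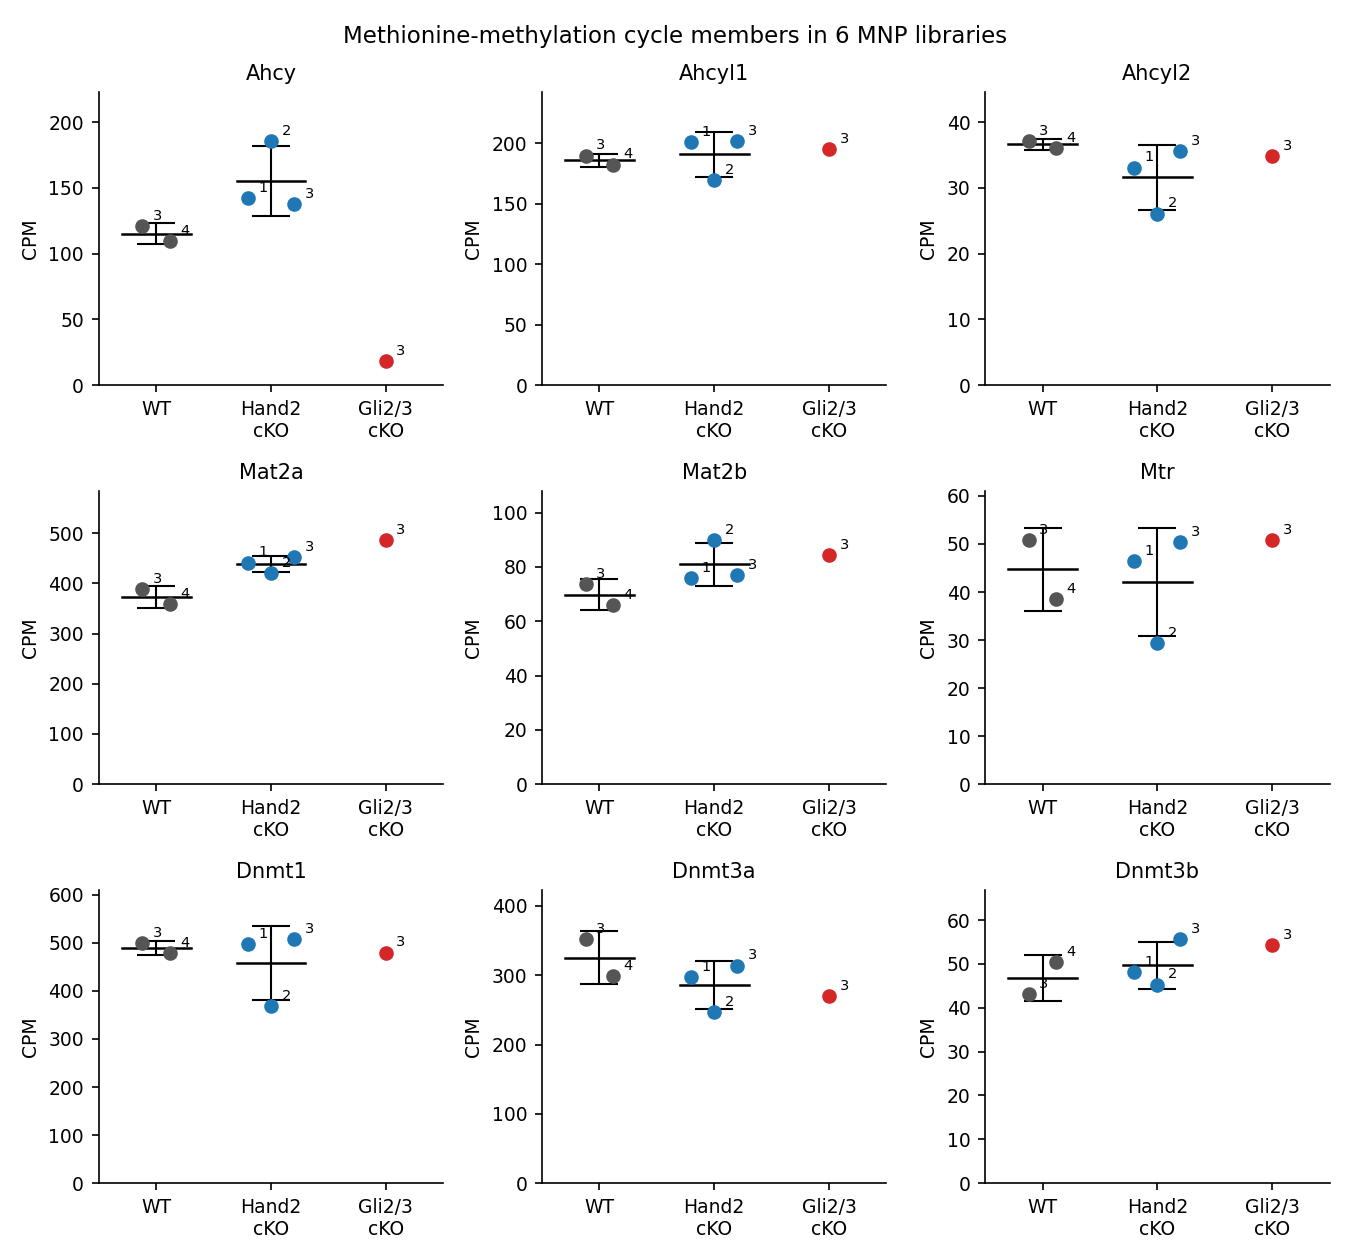
CPM of the 9 members (linear axes from 0), with 1 point per library, numbered by replicate, and bars that show mean ± SD (n = 2 for WT, n = 3 for Hand2 cKO). Ahcy in Gli2/3 cKO (18.2 CPM) lies below all 5 other libraries, and Hand2 cKO 2 is the lowest library for Ahcyl1, Ahcyl2, Mtr, Dnmt1 and Dnmt3a.

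Per length of transcript, the WT libraries order the members as follows, in TPM (transcript counts divided by length and scaled to a common total) summed over transcripts whose length GENCODE gives, with the values of WT 3 and WT 4. Dnmt1 led with 209.7 and 183.5 TPM, and Mat2a (155 and 140.5 TPM, over 1 of each pair of twins) and Dnmt3a (151 and 145 TPM) came next with overlapping ranges. For Mat2a, 10 of 20 transcripts were left out in this way, so its place in the order, and whether Dnmt1 leads it, is uncertain. Ahcyl1 (129.99 and 121 TPM), Ahcy (103 and 87.8 TPM) and Mat2b (79.6 and 70.8 TPM) followed without overlap. Dnmt3b (25.8 and 28.5 TPM), Ahcyl2 (20.1 and 19.3 TPM) and Mtr (13.0 and 9.13 TPM) were the lowest, again without overlap. Gm4737 was at 233 and 239 TPM, above all 9 with Mat2a counted over 1 of each pair of twins, and its place against Mat2a is likewise uncertain. In WT, too, the copy was assigned more counts than Ahcy.

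The comparison of Hand2 cKO with WT, which the choice of members did not use, asks what loss of Hand2 from neural crest changes. None of the 9 members passed the test (edgeR, adjusted p from 0.723 to 0.944, 0 of 9 at an unadjusted p under 0.05 and 0 by DESeq2). Over all genes tested, 0.0114% were called by edgeR, 1.04% by DESeq2 and 6.47% had an unadjusted p under 0.05. Hand2 itself, at 9.46% of its WT level, had an adjusted p of 0.0580, so a member that was not called may still have changed.

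Ahcy had the largest difference of the 9, 0.43 ± 0.19 on the log2 scale (SE, 95% interval -0.03 to 0.89, adjusted p = 0.723). It was at 155 ± 26.5 CPM in Hand2 cKO (n = 3) and 115 ± 7.94 CPM in WT (n = 2), and all 3 mutant libraries lay above both WT libraries. Without Hand2 cKO 2, the library with the most erythroid RNA, the difference was 0.27 (adjusted p = 0.500) and the mutant mean 140.1 CPM. For Ahcy plus its copies it was 0.23 ± 0.19 (adjusted p = 0.732), or 0.07 without Hand2 cKO 2. Gm4737 differed by 0.13 ± 0.19 (adjusted p = 0.826), or by -0.03 without Hand2 cKO 2.

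Among the other members, Mat2a (0.23 ± 0.15) and Mat2b (0.21 ± 0.16) also lay above WT in every Hand2 cKO library, and Ahcyl2 (-0.21 ± 0.18) lay below WT in every one. Groups that do not overlap were thus seen in 4 of 9 members (3 higher, 1 lower) and in 31.0% of all genes tested (15.3% higher, 15.7% lower). Dnmt3a had a difference of -0.19 ± 0.18, Dnmt1 of -0.09 ± 0.20, Mtr of -0.09 ± 0.27, Dnmt3b of 0.09 ± 0.16 and Ahcyl1 of 0.04 ± 0.16. All 9 intervals included 0. Hand2 cKO 2 was the lowest library for 5 of the 9 members and for 32.2% of all genes. With the length trend of each library removed, Ahcyl2 went from -0.21 to 0.01, Dnmt3a to 0.18, Dnmt1 to 0.15 and Mtr to 0.26, and without Hand2 cKO 2 they were at -0.10, -0.10, 0.03 and 0.10, so no direction is given for these 4. Removing the trend also moved the median of all genes from near 0 to 0.12.

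**Figure D4:**
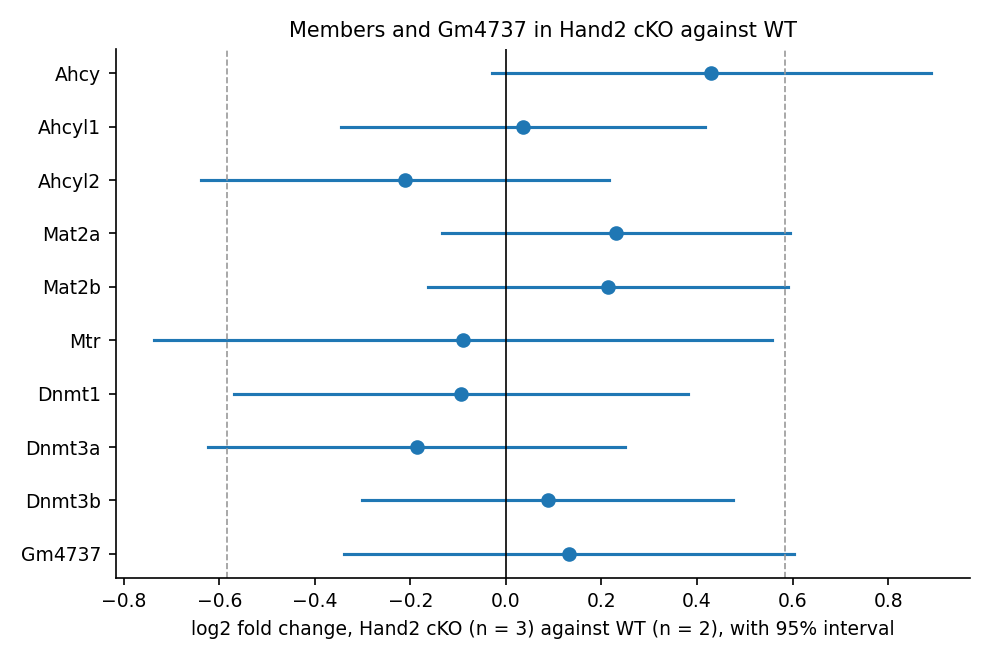
log2 fold change of Hand2 cKO (n = 3) against WT (n = 2) for the 9 members and Gm4737, with points for the estimate, lines for the 95% interval and dashed lines at a fold of 1.5. Every interval includes 0, and that of Ahcy (-0.03 to 0.89) lies farthest to the right.

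At the level of transcripts, Hand2 cKO 2 again stood apart. The 3863-base coding transcript of Ahcyl1 took 58.3% to 73.6% of the counts of the gene in the other 5 libraries and 24.0% in Hand2 cKO 2, where a 3291-base transcript annotated for nonsense-mediated decay took 75.1% (19.8% to 37.9% elsewhere). In Ahcyl2 a retained-intron transcript of 4903 bases took 65.7% in Hand2 cKO 2 and 20.5% in Gli2/3 cKO, and at most 0.3% in the other 4 libraries. The 9685-base transcript of Dnmt3a took 81.8% in Hand2 cKO 2 and 29.8% to 43.6% elsewhere, and the 5248-base transcript of Dnmt1 took 59.9% against 28.9% to 36.0%. These shares were not tested, and transcripts of 1 gene share most of their bases.

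**Figure D5:**
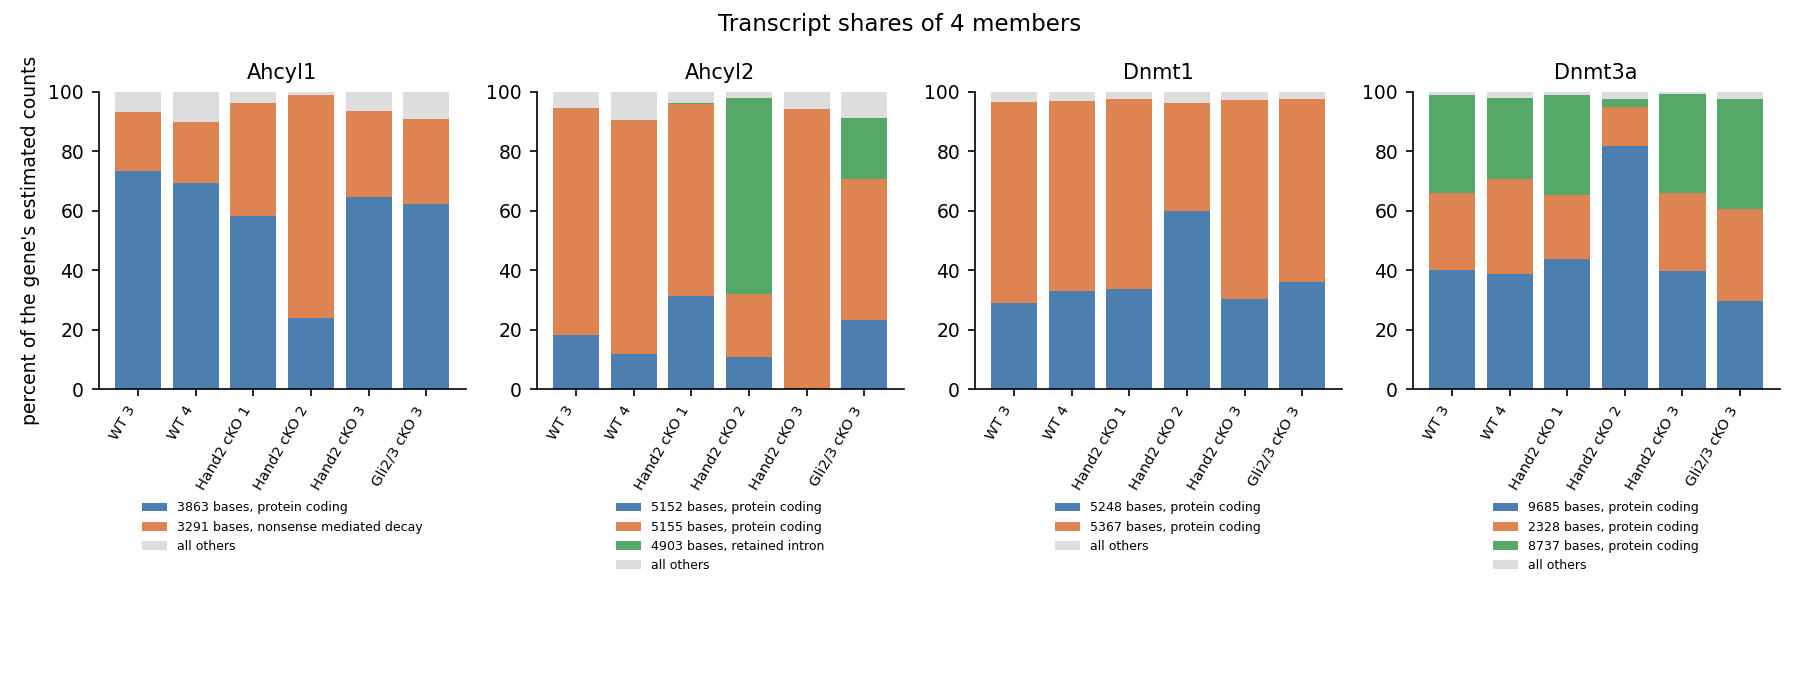
Share of the estimated counts of Ahcyl1, Ahcyl2, Dnmt1 and Dnmt3a (percent of the gene, from 0 to 100) taken by the transcripts named by length and class, with 1 bar per library. In all 4 genes the bar of Hand2 cKO 2 differs from the rest, as in the 24.0% of the Ahcyl1 coding transcript.

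Around the 9 members, 85 further genes of methionine and methylation metabolism were followed in 6 lists, of which 81 passed the filter on low counts. None was called in Hand2 cKO against WT (adjusted p from 0.698 to 0.994, 0 by DESeq2), and at an unadjusted p under 0.05, 7 were higher and 2 lower (2.44% and 4.02% of all genes). None was called in Gli2/3 cKO against WT either, where 0.0114% of all genes were called by edgeR and 0.738% by DESeq2. Both comparisons use the same 2 WT libraries. The median log2 fold change over the 81 genes was 0.14 in Hand2 cKO and 0.10 in Gli2/3 cKO, near 0 over all genes. In Hand2 cKO the medians of 3 lists changed sign between alternatives: other cycle enzymes (-0.06 to 0.37), DNA methylation partners (-0.09 to 0.09) and histone methyltransferases (-0.22 to 0.11).

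Of the other enzymes of the cycle, 9 of 11 were tested (Mat1a, the liver form of the adenosyltransferase, and Nnmt were too low), with a median of 0.08 in Hand2 cKO, or -0.00 without Hand2 cKO 2. Adk, the kinase that removes the adenosine released by AHCY, was at 58.6 ± 0.559 CPM in WT and 82.9 ± 14.9 in Hand2 cKO and 70.4 in the Gli2/3 cKO library. Cth, which makes cysteine from cystathionine, was at 19.5 ± 1.45 and 23.8 ± 2.99 CPM. Pemt and Bhmt2, a liver methyltransferase and a liver source of methionine, were under 4 CPM in every library.

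In the folate list, 14 of 15 genes were tested and the median in Hand2 cKO was 0.17, or 0.08 without Hand2 cKO 2. Mthfd1l, a mitochondrial enzyme that yields formate, was at 42.1 ± 0.213 CPM in WT, at 58.1 ± 1.02 CPM in Hand2 cKO and at 57.9 CPM in Gli2/3 cKO. Its adjusted p in Hand2 cKO, 0.698, was the lowest of the 81 genes. Shmt1, which takes the carbon from serine, was at 79.5 ± 3.91 and 106 ± 12.6 CPM, and Aldh1l2 at 3.55 ± 0.537 and 1.78 ± 0.634 CPM in WT and Hand2 cKO.

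Methionine salvage and polyamine synthesis, which consume SAM and return methionine, gave the highest median in Hand2 cKO, 0.40, with log2 fold changes above 0 in 11 of 11 genes, 3 of them at an unadjusted p under 0.05. Sms, spermine synthase, was at 114 ± 5.66 CPM (WT) and 175 ± 22.9 CPM (Hand2 cKO), Amd1, which decarboxylates SAM, at 196 ± 6.30 and 261 ± 14.4 CPM, Mtap, the first salvage enzyme, at 115 ± 5.77 and 152 ± 16.0 CPM, and Odc1, ornithine decarboxylase, at 353 ± 70.3 and 480.5 ± 83.6 CPM. Without Hand2 cKO 2 the median of the list was 0.12 with 10 of 11 genes above 0, so the size of the median rested on that library. In that fit, 4 genes of the list were higher at an unadjusted p under 0.05 (edgeR) and 0 lower. That fit called 39 of all genes, against 2 in the main fit. Its share of all genes at an unadjusted p under 0.05 was not computed, so nothing is read from the count of 4.

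Among partners of the DNA methyltransferases and TET enzymes, which oxidise methylcytosine, 11 of 12 genes were tested with a median of -0.02. Trim28, a corepressor that guards imprinted methylation, was at 1034 ± 15.2 CPM (WT) and 1252 ± 232 CPM (Hand2 cKO), and its zinc finger partner Zfp57 at 107.8 ± 5.08 and 99.2 ± 4.60 CPM. Tdg, a glycosylase that removes oxidised methylcytosine, was at 247 CPM in WT 3 but 102 CPM in WT 4. Like Ahcy, Tdg has a near-identical intronless copy, Gm9855, and Tdg held 58.2% of the counts of the pair in WT 4 and 81.1% to 100% elsewhere.

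The 18 histone methyltransferases had a median of -0.10 in Hand2 cKO (-0.01 without Hand2 cKO 2) and 0.05 in Gli2/3 cKO. Ezh1, of the Polycomb repressive complex, was at 26.4 ± 1.55 CPM (WT) and 19.5 ± 1.87 CPM (Hand2 cKO). Suv39h2, of constitutive heterochromatin, was at 55.8 ± 6.31 and 68.6 ± 2.87 CPM, Dot1l, which methylates nucleosome cores, at 188 ± 1.65 and 143 ± 30.9 CPM, and Kmt2b, of the MLL family, at 208 ± 2.81 and 155 ± 39.7 CPM. The 18 RNA and protein methyltransferases had medians of 0.21 (0.07 without Hand2 cKO 2) and 0.10. Rnmt, which methylates the mRNA cap, was at 61.2 ± 6.65 and 77.5 ± 4.42 CPM, Nsun2, a tRNA cytosine methyltransferase, at 190.5 ± 6.11 and 248 ± 33.4 CPM, Prmt3, an arginine methyltransferase, at 44.6 ± 2.58 and 56.0 ± 6.52 CPM, and Fbl, the methyltransferase of ribosomal RNA, at 191 ± 5.84 and 282 ± 101.9 CPM in WT and Hand2 cKO.

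The neighbours of Ahcy on chromosome 2 were examined because a change of the locus could reach beyond 1 gene. Of 11 annotated genes within 250 kb, 8 were tested. In Gli2/3 cKO, 3 of them (Raly, Dynlrb1 and Map1lc3a) were below all other libraries and 1 (a, the agouti gene, at 1.49 CPM) above, against 16.8% and 18.7% of all genes tested. The ubiquitin ligase gene Itch, 59.01 kb away, was at 102 CPM in Gli2/3 cKO and 92.1 ± 15.2 CPM in WT, Pigu at 33.0 and 33.3 ± 1.53 CPM, Raly at 335 and 359.9 ± 33.3 CPM and Eif2s2 at 311 and 227 ± 19.1 CPM. Dynlrb1 was at 55.2 and 71.6 ± 17.0 CPM and Map1lc3a at 18.1 and 24.6 ± 2.41 CPM. The lowest log2 fold change was -0.99, in Gm14226 (2.30 CPM against 4.57 ± 0.0414). The highest was 1.66, in a (1.49 CPM against 0.459 ± 0.149, both low), and the median of the 8 was -0.06. In Hand2 cKO none was called (Eif2s2 alone had an unadjusted p under 0.05, at 344 ± 73.9 CPM).

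By the distance between log2 CPM centred over the 6 libraries, the 6 genes most like Ahcy, leaving out numbered gene models and pseudogenes, were Foxf2 (distance 0.53), Kpna2 (0.94), Foxc2 (1.03), Alx1 (1.06), Gli1 (1.11) and Vcam1 (1.18). All 6 had their lowest level in Gli2/3 cKO, the library for which Ahcy was chosen. Foxf2, a forkhead gene, was at 32.2 and 33.1 CPM in WT, 47.8, 50.5 and 46.9 in Hand2 cKO and 3.63 in the Gli2/3 cKO library. Kpna2, which encodes an importin, was at 402 and 173 CPM in WT, 434, 546 and 408 in Hand2 cKO and 37.3 in the Gli2/3 cKO library. Kpna2, like Ahcy, has a near-identical copy, Gm10184 (99.9% identity), and held 10% of the counts of that pair in Gli2/3 cKO, 48.1% in WT 4 and 99.8% to 99.9% in the other 4 libraries.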

How the data were processed

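Per the labels, polyadenylated RNA of E10.5 MNPs was sequenced. The study mapped 150-base paired-end reads to mm10 and determined transcript abundance in Strand NGS, with DESeq2. For program version and annotation, nothing is given in the sources used here. The authors deposited expected counts, estimated read counts for each of 105129 transcripts, of which 47.7% to 56.8% of values per library were not whole. Counts were summed by gene symbol and rounded, although whole-number counts had been assumed. Pairs of replicates gave a chi-square of 24.0 to 225 per degree of freedom, so none was a duplicate.

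Genes were tested with edgeR 4.0.16 (R 4.3.3): filterByExpr, trimmed mean of M values, 1 quasi-likelihood fit of all 6 libraries (3 residual degrees of freedom), with calls past 1.5-fold at an adjusted p (Benjamini-Hochberg) under 0.05. The Gli2/3 cKO library has no replicate check. The fit was tested on simulated data. DESeq2 1.42.0 was an alternative. Copies were found with blastn 2.17.0 in GENCODE M21 (103635 transcripts matched without version).

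Members and lists were chosen with earlier results of these data known. Named genes were all members, every Ahcy copy, up to 4 genes per list with the smallest p in Hand2 cKO, the neighbours of Ahcy, the 6 genes most like it (mean log2 CPM of at least 3) and the targeted genes. Some genes that this rule names are not reported here. Alternatives covered scaling, test, filter, libraries fitted, transcript length, gene class, each replicate left out and the definition of a copy.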

Additional observations from a re-analysis of the deposited data

How the results depend on the processing

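The count of genes called in Hand2 cKO against WT, 2, was 182 by DESeq2, 45 without the filter, 48 with the length trend removed, 10 among protein-coding genes, 1 with upper-quartile scaling and 1 to 39 without a replicate (leaving out WT 3 gave 22, Hand2 cKO 2 gave 39 and Hand2 cKO 3 gave 25). In Gli2/3 cKO against WT, 2 became 129, 21 and 10 by the first 3 of these, 57 when only the groups compared were fitted, and 0 to 14 without a replicate. In Gli2/3 cKO against Hand2 cKO, 6 became 143, 39, 40, 20 and 2 to 23. The causes were not tested. In Hand2 cKO against WT, no member, listed gene or neighbour was called under any of the 12 alternatives (members' adjusted p from 0.353 to 0.998). Ahcy against WT ran from -2.73 to -2.59 in Gli2/3 cKO and from 0.27 to 0.52 in Hand2 cKO, and Ahcy plus its copies, an analysis added after seeing the data for Hand2 cKO, from 0.23 to 0.28 and from 0.07 to 0.35. Counting as copies only transcripts over 90% identical, or all over 70%, left the sum's direction in place. In Hand2 cKO, Ahcyl1, Ahcyl2, Mtr, Dnmt1, Dnmt3a, Dnmt3b and Gm4737 each changed sign under 1 to 3 alternatives. No paired analysis was possible because the groups share fewer than 2 replicate numbers. Depth and 1 Gli2/3 cKO library limit all values for that genotype.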

Other observations

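The division of counts between a gene and a near-identical intronless copy was followed beyond Ahcy, in 103 pairs of at least 98% identity over at least 500 bases whose sum reached 20 CPM (before scaling between libraries) in every library. In the Gli2/3 cKO library the parent's share lay over 20 percentage points below all other libraries in 8 pairs from 7 parent genes. Besides Ahcy (4.26% against 30.1% to 38.1%) these were Kpna2 (10% against 48.1% to 99.9%), Rps13 (6.76% against 40.3% to 100%), Rps3a1 with each of its copies Rps3a2 (17.5% against 69.6% to 99.98%) and Rps3a3 (40.2% against 88.5% to 99.96%), Rpsa (36.2% against 65.99% to 99.9%), Rpl14 (63.7% against 95.9% to 100%) and Ubb (73.0% against 99.6% to 99.95%). The same was seen in 4 pairs in WT 4, in 1 in Hand2 cKO 2, in which Gapdh held 71.6% of its sum with Gm13394, and in none of WT 3, Hand2 cKO 1 and Hand2 cKO 3. A share over 20 points above all others was found in 1 pair each in WT 4 (Rpl3) and Hand2 cKO 1 (Rps18). The sum of parent and copy stayed within the range of the other libraries in 5 of the 8 pairs in Gli2/3 cKO. Gli2/3 cKO 3 and WT 4 are also the libraries with the fewest estimated counts, 25421663 and 21420197, and the part of depth in these shifts was not tested. For each gene named here, a count of the parent alone and a count of parent plus copy give different folds.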
